A study of Rattus norvegicus with 8 samples.

Results

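The genes described here are 35 rat genes with symbol prefixes of ubiquitin conjugation and protein breakdown, among them Usp6nl, which is no protease. They were taken from 32623 gene identifiers counted in the dorsal root ganglion (DRG). They are the identifiers with at least 10 counts in at least 2 libraries whose symbol begins with one of the family prefixes of ubiquitin-activating and ubiquitin-conjugating enzymes, ubiquitin-specific proteases, TRIM, F-box and RING finger proteins, proteasome subunits, kelch-like, KCTD, ASB and cullin genes. A symbol was known for 1961 identifiers, because the lists published with the data pair identifier and symbol only for genes that differed in these libraries. All 35 genes with a matching symbol passed the count limit and the filter on low counts, and the gene nearest the limit, Kctd19, had 19 counts in its lowest library and 118 in its highest. Of the 35, 22 were listed for an interaction of sex and injury, 7 for that interaction and for a difference between naïve males and naïve females, and 6 for the difference between naïve sexes alone. These values chose the genes, so the naïve sex difference, the interaction and the change in each sex are given as a description, and counts of genes past a threshold in them support nothing about the 35 genes.

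The study compared DRGs of adult male and female Sprague-Dawley rats that were naïve or had received a chronic constriction injury (CCI), a neuropathic pain model in which the sciatic nerve is loosely tied with silk sutures. Each library came from 1 rat, whose ipsilateral DRGs from L4 to L6 were pooled, for 8 libraries in 4 groups of 2 rats by sex and injury, and tissue was taken on day 14 after CCI. The naïve rats had no operation, so injury cannot be told apart from anesthesia and incision, and estrus stage was not recorded. Sequencing took place in 2 batches, and since the sources used here do not give the batch of a library, batch and group cannot be told apart. The paper states that samples of both batches were sequenced again in a shared lane to check for batch effects, and that none were corrected.

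Ubiquitin is activated by an E1 enzyme, passed to an E2 conjugating enzyme and placed on a target by an E3 ligase, which gives the system its choice of targets. RING finger and TRIM proteins act as E3 ligases themselves, whereas F-box, kelch-like, KCTD and ASB proteins bring targets to cullin ligases. Ubiquitin-specific proteases remove the tag, and the proteasome, a barrel-shaped core particle capped by a regulatory particle, degrades many of the tagged proteins. In neurons the system is known for its part in synaptic protein turnover and in the breakdown and repair of injured axons.

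Total counts ranged from 39489103 to 60818457 per library, and 16988 genes were tested. Expression is given as CPM, the counts divided by library size after TMM scaling in edgeR, and a change as log2 fold change (log2FC) ± SE from edgeR. CPM is not corrected for gene length, so levels are compared between groups and not between genes. Between the rats of a group, the median absolute difference of log2 CPM over the 35 genes was 0.0999 for the naïve and 0.0683 for the CCI males, and 0.170 for the naïve and 0.120 for the CCI females. In bulk tissue, a change in the number of cells of a type and a change in RNA per cell cannot be told apart.

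The genes were divided by the sign of the interaction, with mixed signs among the RING finger, TRIM, F-box and cullin adaptor genes. In 16 genes the change after CCI was lower in females than in males, and these were all 6 proteasome subunits, all 5 E2 enzymes, Fbxo9, Kctd6, Klhl14, Rnf180 and Trim37. In the other 19 it was higher in females, and these were the E1 enzyme Uba7, 6 of 7 TRIM genes, 5 of 7 cullin adaptors, 2 of 3 F-box genes, Rnf40, the 3 ubiquitin-specific proteases and Usp6nl. All 16 genes of the first set were higher in naïve females than in naïve males, with log2FC from 0.12 to 0.56 and a median of 0.29. Of the 19 genes of the second set, 18 were lower in naïve females (median of the set -0.49), and the exception was Trim45 (0.29 ± 0.10). In males the median log2FC after CCI was 0.39 in the first set and -0.78 in the second, against -0.01 over all genes tested. In females the medians were -0.11 and -0.14, against -0.02 over all genes tested. The 3 differences share their naïve libraries, so a high or low naïve group moves them together.

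**Figure D1:**
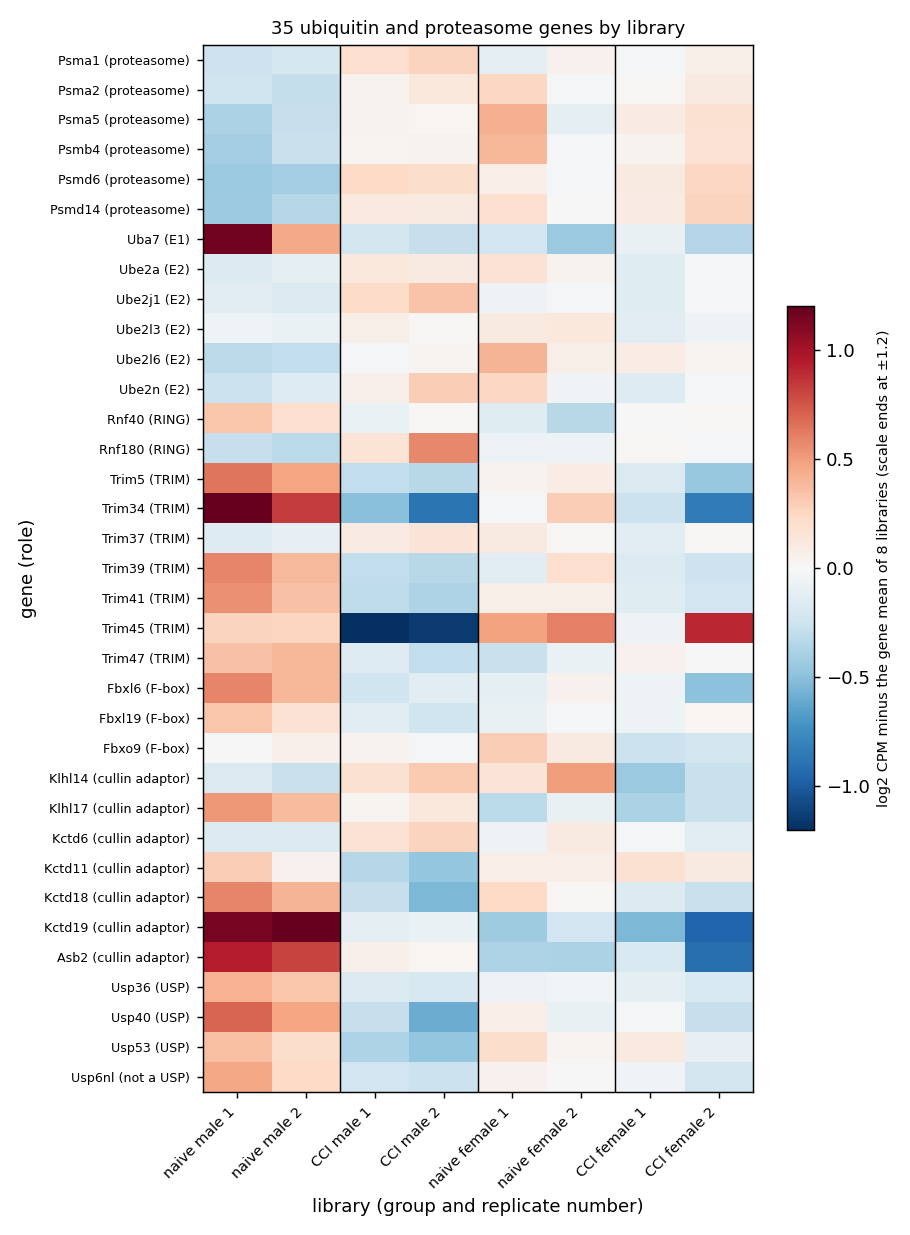
Each row is 1 of the 35 genes, grouped by role, and each column 1 library, with color giving log2 CPM minus the gene's mean over the 8 libraries (red above the mean, blue below). The naïve male columns are blue for the 6 proteasome genes and red for most TRIM, cullin adaptor and USP rows, and the widest contrasts within a row are in Trim34, Trim45 and Kctd19.

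The naïve male libraries stood outside the range of the other 6 libraries in 26 of the 35 genes, above it in 16 and below it in 10. Over all genes tested this held for 36.4% of genes, 19.5% above and 17% below. CCI males stood outside the range of the others in 13 of 35 (23.5% over all genes), naïve females in 3 (12.7%) and CCI females in 3 (13.7%). Both male groups were without overlap in 34 of 35 genes (72.8% over all genes), both naïve groups in 33 (60%), both CCI groups in 25 (51.2%) and both female groups in 18 (59.5%). The listing used these libraries, so the shares are given beside the background and nothing is read from them.

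The thresholds used for a call were an adjusted p of less than 0.05 together with a log2FC beyond 0.5 in either direction. In males 19 of 35 genes met them, with 3 genes higher and 16 lower after CCI (over all genes 21.6%, with 9.05% higher and 12.5% lower). Without the first CCI male the count was 0 of 35 and 0 over all genes, without the second it was 10 (1838 over all genes), and without the first naïve male it was 12 (2321 over all genes). In females no gene met them in edgeR (5.69% over all genes), 8 had an unadjusted p under 0.05 (28.7% over all genes), and DESeq2 gave 1, Trim34 (1140 over all genes). Fbxo9 was the one gene with an adjusted p under 0.05 in females in edgeR (9.18% over all genes). For the interaction no gene had an adjusted p under 0.05 in edgeR (1.59% over all genes), 30 had an unadjusted p under 0.05 (24% over all genes) and DESeq2 gave 26 (1618 over all genes). Between naïve females and naïve males edgeR gave 0 (0.0706% over all genes) with 28 at an unadjusted p under 0.05 (25.6% over all genes), and DESeq2 gave 10 (996 over all genes). Between CCI females and CCI males edgeR gave 0 (1.06% over all genes) with 12 at an unadjusted p under 0.05 (18.3% over all genes). The genes were listed for the interaction or the naïve sex difference in these libraries, which fixes such counts in advance, and nothing is read from them. Fits without a library had 1 rat in a group, so their lower counts can also come from lost power.

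**Figure D2:**
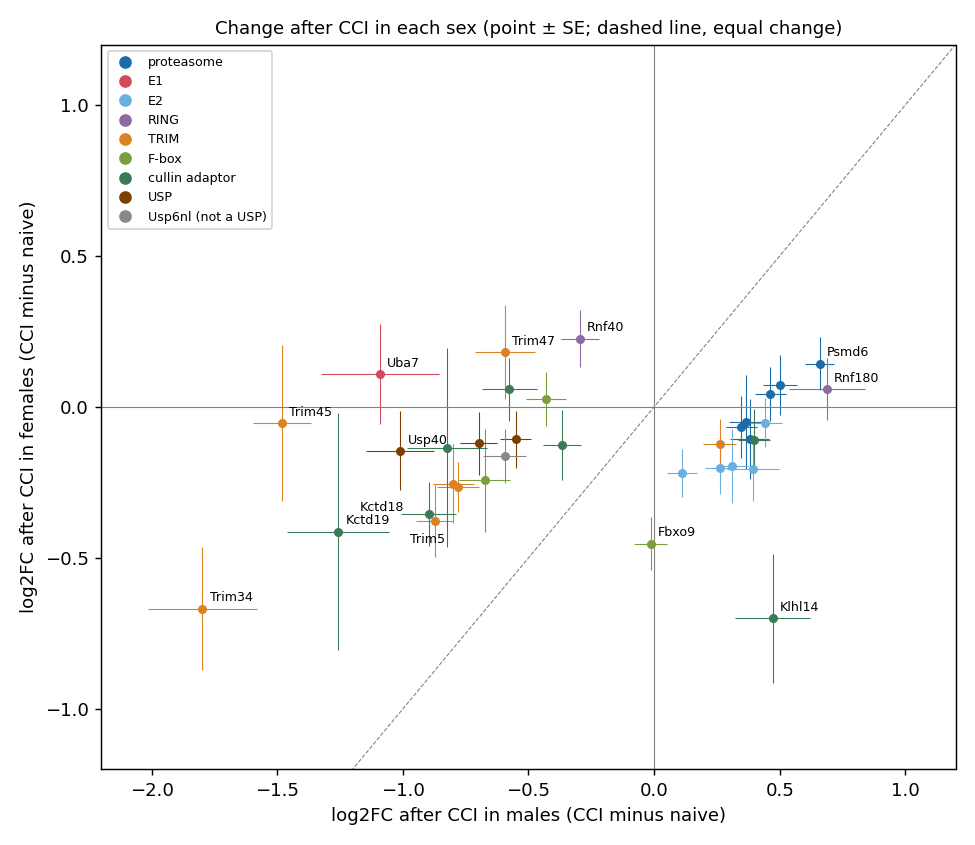
Each point is 1 of the 35 genes, with the log2FC after CCI in males on the x axis, in females on the y axis, bars of 1 SE and color by role. The proteasome genes lie right of 0 and close to 0 on the y axis. The 5 E2 genes lie right of 0 and below 0 on the y axis (-0.22 to -0.05). Trim34 lies farthest left at -1.80 in males and -0.67 in females.

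Proteasome subunits were lower in naïve males than in the other groups. Psmd6 (ENSRNOG00000006751), a subunit of the lid of the regulatory particle, was at 118 and 120.2 CPM in the naïve and 189 and 186 in the CCI males, against 169 and 157 in the naïve and 173 and 190.4 in the CCI females. Both naïve males were below the other 6 libraries, naïve females came next, and the CCI groups of both sexes overlapped. The log2FC after CCI was 0.66 ± 0.06 in males and 0.14 ± 0.09 in females, and Psmd6 had the largest change in males among the 6. Psmd14, the lid enzyme that removes ubiquitin from a protein before breakdown, was at 90.4 and 96.7 CPM in the naïve and 133 and 132 in the CCI males, against 141 and 122 in the naïve and 131 and 147 in the CCI females. It too was lowest in the naïve males, with a log2FC of 0.50 ± 0.07 in males and 0.07 ± 0.10 in females. Of the core particle, Psmb4 (ENSRNOG00000020979), a subunit of the inner rings, was at 145 and 159 CPM in the naïve and 197 and 198 in the CCI males, against 253 and 190 in the naïve and 198 and 217 in the CCI females. The first naïve female was the highest library and both naïve males the lowest, and the log2FC between naïve females and naïve males was 0.55 ± 0.15.

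The outer rings of the core particle, which form the gate for substrates, were represented by Psma1, Psma2 and Psma5. Psma1 was at 95.6 and 98.1 CPM in the naïve and 129.9 and 136 in the CCI males, against 105 and 117 in the naïve and 112 and 119 in the CCI females. Both CCI males were above all other libraries and both naïve males below them. Psma2 was at 115 ± 2.52 CPM in the naïve and 146 ± 5.64 in the CCI males, against 150.4 ± 19.5 in the naïve and 144 ± 6.65 in the CCI females (mean ± SD, n = 2). Psma5 was at 73.7 and 79.3 CPM in the naïve and 99.1 and 97.9 in the CCI males, against 129 and 88.9 in the naïve and 103 and 109 in the CCI females. In Psma5 the naïve females were 129 and 88.9 CPM, a log2 difference of 0.54 that was the widest of the 35 genes in this group, and the second of these rats was below all 4 CCI libraries. The log2FC after CCI in males was 0.46 ± 0.06 for Psma1, 0.35 ± 0.06 for Psma2 and 0.37 ± 0.07 for Psma5, and in females 0.04 ± 0.09, -0.07 ± 0.10 and -0.05 ± 0.16 in the same order. Summed over the 6 subunits, the level was 639 and 667 CPM in the naïve and 890.1 and 899.9 in the CCI males, against 961 and 812 in the naïve and 856 and 931 in the CCI females. Naïve males had the lowest sums, and the other 3 groups overlapped in this sum. The inducible subunits Psmb8, Psmb9 and Psmb10 and the transcription factors Nfe2l1 and Nfe2l2 were not analysed here, because no identifier was paired with them.

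**Figure D3:**
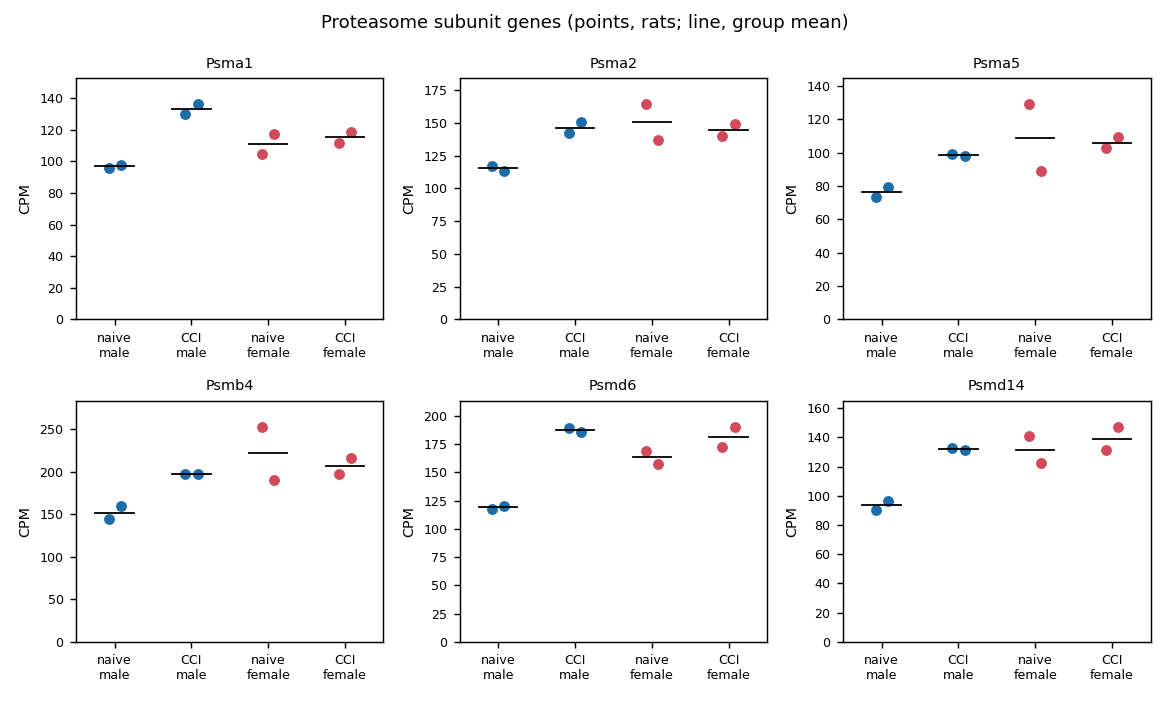
CPM of the 6 proteasome subunit genes in each rat (points, males blue and females red) with the mean of each group (line), on axes that start at 0. In every panel both naïve male points lie below the other 6 points, and the naïve females are farther apart than the naïve males in all 6 panels.

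The E1 enzyme Uba7 (ENSRNOG00000029195), which activates the ubiquitin-like protein ISG15, was at 17.2 and 10.6 CPM in the naïve and 6.63 and 6.396 in the CCI males, against 6.62 and 5.67 in the naïve and 7.29 and 6.06 in the CCI females. Naïve males were the highest libraries, their log2 difference of 0.69 was the widest of the 35 genes in this group, and the other 3 groups overlapped. Its partner, the E2 enzyme Ube2l6 (ENSRNOG00000030467), was at 21.05 and 21.4 CPM in the naïve and 25.8 and 26.8 in the CCI males, against 34.8 and 27.5 in the naïve and 27.9 and 26.8 in the CCI females, with both naïve males lowest. The log2FC after CCI was -1.09 ± 0.24 for Uba7 and 0.31 ± 0.06 for Ube2l6 in males, and 0.11 ± 0.17 and -0.19 ± 0.12 in females. Neither of them holds the interferon response element core GAAANNGAA, searched on both strands, in the 250 bases before the gene's start in RefSeq GRCr8. It was found in 0 of the 30 genes with a promoter in that table, against 8.12% of all 33469 promoters. ISG15 itself, Herc6 and Usp18 were not analysed here.

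The antioxidant response element core TGACNNNGC, the motif bound by Nfe2l1 and Nfe2l2, was in 5 of the 30 promoters (16.7%), against 10.1% of all promoters and 10.5% of those of protein-coding genes. The 5 were Rnf40, Uba7, Ube2j1, Ube2n and Usp36, and none of the 4 proteasome promoters in the table held it. The matches are a description of these letters and of no binding. The upstream windows of Ube2j1, of the partners Uba7 and Ube2l6 and of the proteasome gene Psmb4 are shown 5′ to 3′ on the gene's strand, with matches in capitals, to set promoters with and without the motif side by side. They are those of Ube2j1 (chr5:52218557-52218806, plus strand), which has a match 77 bases before its start on the opposite strand and one 39 bases before it on the same strand, Uba7 (chr8:117543652-117543901, plus strand) with a match 92 bases before its start, and Ube2l6 (chr3:90279455-90279704, plus strand) and Psmb4 (chr2:185134562-185134811, minus strand) with none. Coordinates are those of GRCr8, whereas the counts were made on rn6.
Ube2j1: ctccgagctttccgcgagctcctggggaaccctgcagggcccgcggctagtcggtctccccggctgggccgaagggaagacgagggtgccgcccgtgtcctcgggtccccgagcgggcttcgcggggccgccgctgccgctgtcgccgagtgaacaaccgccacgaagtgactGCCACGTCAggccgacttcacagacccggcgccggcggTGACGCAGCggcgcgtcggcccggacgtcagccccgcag
Uba7: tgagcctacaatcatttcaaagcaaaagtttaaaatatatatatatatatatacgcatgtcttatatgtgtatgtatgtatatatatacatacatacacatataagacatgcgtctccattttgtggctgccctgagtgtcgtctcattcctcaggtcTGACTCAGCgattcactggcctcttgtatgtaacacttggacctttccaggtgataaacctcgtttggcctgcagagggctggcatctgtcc
Ube2l6: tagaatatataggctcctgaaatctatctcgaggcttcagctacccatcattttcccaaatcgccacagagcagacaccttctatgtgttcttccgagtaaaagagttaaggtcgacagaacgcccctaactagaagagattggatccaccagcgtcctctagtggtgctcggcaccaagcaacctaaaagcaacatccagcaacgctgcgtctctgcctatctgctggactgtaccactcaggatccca
Psmb4: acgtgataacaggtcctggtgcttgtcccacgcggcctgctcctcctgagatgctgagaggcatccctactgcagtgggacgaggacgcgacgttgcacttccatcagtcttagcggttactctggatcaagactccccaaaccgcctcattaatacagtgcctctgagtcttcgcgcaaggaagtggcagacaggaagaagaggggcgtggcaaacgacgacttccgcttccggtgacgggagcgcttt

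In the 5 E2 enzymes the log2FC after CCI was 0.11 to 0.44 in males and -0.22 to -0.05 in females, and none met the thresholds in either sex. The female groups overlapped in Ube2j1, Ube2l6 and Ube2n, and the female log2FC of Ube2j1 was 0.0156 without the first CCI female. Ube2j1, an E2 of the endoplasmic reticulum that serves the disposal of misfolded proteins, was at 89.2 and 87.3 CPM in the naïve and 114 and 125 in the CCI males, against 94.3 and 96.9 in the naïve and 88.9 and 96.6 in the CCI females. Both CCI males were above the other 6 libraries. Ube2a, an E2 that works with Rnf40 on histone ubiquitination and in DNA damage tolerance, was at 70.4 and 73.01 CPM in the naïve and 86.3 and 85.3 in the CCI males, against 89.2 and 81.3 in the naïve and 71.5 and 77.9 in the CCI females, so that the groups of each sex did not overlap and moved in opposite directions (0.26 ± 0.06 in males, -0.20 ± 0.09 in females). Ube2l3, which charges many E3 ligases, was at 269 and 265 CPM in the naïve and 293 and 282 in the CCI males, against 301 and 304 in the naïve and 256 and 267 in the CCI females. Its naïve females were the highest libraries, and its log2FC was the smallest of the 5 in males. Ube2n, an E2 that builds signalling ubiquitin chains, was at 63.4 ± 3.102 CPM in the naïve and 83 ± 9.58 in the CCI males, against 78.9 ± 11.2 in the naïve and 68.9 ± 4.602 in the CCI females (mean ± SD, n = 2), with log2FC of 0.39 ± 0.10 in males and -0.20 ± 0.11 in females. RefSeq names 9 pseudogenes of Ube2n and 3 of Ube2l3, so reads may have been shared with copies and both levels are uncertain. The same holds for Psma2 with 2 named pseudogenes and for Psma5, Psmb4, Psmd14, Trim39 and Kctd18 with 1 each.

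Of the 2 RING finger genes, Rnf40, a subunit of the ligase that ubiquitinates histones, was at 49.1 and 44.97 CPM in the naïve and 37.01 and 39.5 in the CCI males, against 35.3 and 31.1 in the naïve and 38.9 and 39.4 in the CCI females. Naïve males were the highest group and naïve females the lowest, and CCI males and CCI females overlapped. Its log2FC after CCI was -0.30 ± 0.08 in males and 0.23 ± 0.09 in females, opposite to those of its E2 Ube2a. Rnf180, a membrane-bound ligase, was at 12.7 and 12.3 CPM in the naïve and 17.3 and 22.96 in the CCI males, against 14.7 and 14.8 in the naïve and 15.6 and 15.3 in the CCI females. Both CCI males were above all other libraries, and they were the widest apart of the 35 genes in that group (log2 difference 0.41). The log2FC was 0.69 ± 0.15 in males, or 0.47 without the second CCI male, and 0.06 ± 0.10 in females.

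The TRIM genes, a family of E3 ligases with several members in antiviral defense, were mostly high in naïve males. Trim34 (ENSRNOG00000042686), an interferon-inducible ligase, was at 32.8 and 22.6 CPM in the naïve and 8.98 and 6.89 in the CCI males, against 12.4 and 15.5 in the naïve and 10.6 and 7.06 in the CCI females. Naïve males were above all other libraries and the CCI groups of both sexes overlapped. The log2FC was -1.80 ± 0.22 in males and -0.67 ± 0.20 in females. Trim5, its neighbor in the genome and a restriction factor of retroviral capsids, was at 34.8 and 31.01 CPM in the naïve and 18.1 and 17.7 in the CCI males, against 22.98 and 23.7 in the naïve and 19.8 and 16.3 in the CCI females. CCI libraries were below naïve libraries in each sex, with -0.87 ± 0.07 in males and -0.38 ± 0.12 in females. Trim34 and Trim5 are paralogs with no annotated gene between them in GRCr8, so reads may have been split between them.

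Trim41, a ligase known for degrading protein kinase C, was at 74.6 and 65.4 CPM in the naïve and 41.5 and 39.6 in the CCI males, against 53.6 and 53.9 in the naïve and 46.3 and 43.7 in the CCI females. Trim39, a ligase with roles in cell division and cell death, was at 30.8 ± 3.01 CPM in the naïve and 17.6 ± 0.31 in the CCI males, against 22.6 ± 3.77 in the naïve and 19.04 ± 0.771 in the CCI females (mean ± SD, n = 2). Both were highest in naïve males and lowest in CCI males, outside the range of all other libraries, and naïve and CCI females did not overlap in either. Trim45 (ENSRNOG00000015347), a TRIM protein that dampens growth signalling, was at 12.6 and 12.6 CPM in the naïve and 4.25 and 4.75 in the CCI males, against 14.7 and 15.96 in the naïve and 10.1 and 19.6 in the CCI females. Here CCI males stood apart, below all other libraries, whereas the highest and the lowest female library were both CCI females, the widest difference between rats of a group in the 35 genes (0.96 in log2). The log2FC was -1.48 ± 0.11 in males and -0.05 ± 0.26 in females, and the difference of the changes, 1.44 ± 0.37, was 0.88 without the second CCI female. Trim47 was at 8.09 ± 0.16 CPM in the naïve and 5.34 ± 0.372 in the CCI males, against 5.55 ± 0.502 in the naïve and 6.34 ± 0.172 in the CCI females, with naïve males above all others. Trim37, a ligase for histones and centriolar proteins, was the one TRIM gene that was higher after CCI in males (0.26 ± 0.07) and it was lower in females (-0.12 ± 0.09). It was at 196 and 204 CPM in the naïve and 235 and 244 in the CCI males, against 235 and 220.3 in the naïve and 201 and 220.1 in the CCI females.

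Among the F-box genes, which recruit targets to SCF ligases, Fbxo9 (ENSRNOG00000008214) was at 87.03 and 91.1 CPM in the naïve and 89.9 and 86 in the CCI males, against 107 and 94.5 in the naïve and 73.4 and 75.1 in the CCI females. The male groups overlapped, both naïve females were above all other libraries and both CCI females below them. Fbxo9 is the one gene of the 35 whose male groups overlapped (-0.01 ± 0.06 in males), and its log2FC in females was -0.45 ± 0.09. Fbxl6 was at 14.1 ± 1.26 CPM in the naïve and 8.8 ± 0.452 in the CCI males, against 9.81 ± 0.775 in the naïve and 8.34 ± 1.77 in the CCI females. Fbxl19, which binds CpG-rich DNA, was at 39.3 ± 2.93 CPM in the naïve and 29.1 ± 1.67 in the CCI males, against 31.8 ± 1.2 in the naïve and 32.5 ± 1.26 in the CCI females (mean ± SD, n = 2). Both were highest in naïve males, with log2FC in males of -0.67 ± 0.10 for Fbxl6 and -0.43 ± 0.08 for Fbxl19, and female groups that overlapped.

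**Figure D4:**
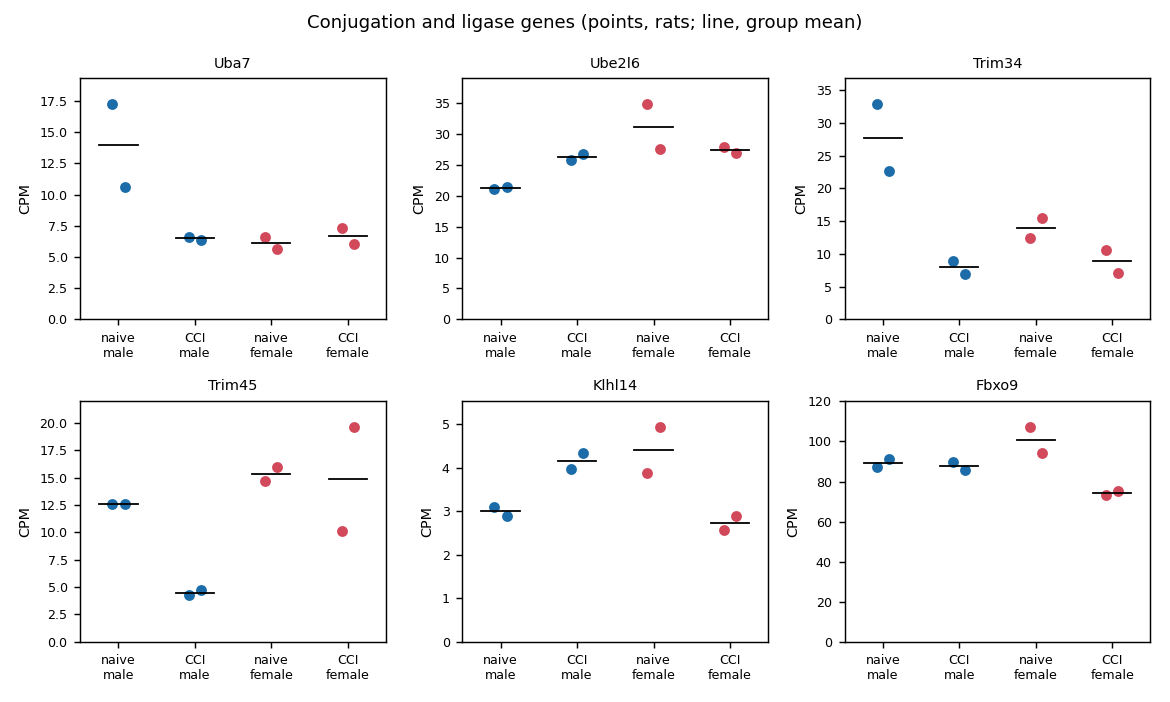
CPM of Uba7, Ube2l6, Trim34, Trim45, Klhl14 and Fbxo9 in each rat (points, males blue and females red) with the mean of each group (line), on axes that start at 0. Uba7 and Trim34 are highest in naïve males, Trim45 is lowest in CCI males, and Klhl14 and Fbxo9 are lower in CCI females than in naïve females.

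The cullin adaptors differed among themselves. Klhl14 (ENSRNOG00000015418), a kelch-like protein, was at 3.097 and 2.898 CPM in the naïve and 3.96 and 4.33 in the CCI males, against 3.87 and 4.94 in the naïve and 2.56 and 2.89 in the CCI females. In males both CCI rats were above both naïve rats, in females both were below, and the log2FC was 0.47 ± 0.15 and -0.70 ± 0.21. Kctd6 and Kctd11, adaptors known from Hedgehog signalling, went opposite ways in males, with 0.40 ± 0.06 for Kctd6 and -0.58 ± 0.11 for Kctd11. Kctd6 was at 21.7 ± 0.162 CPM in the naïve and 28.5 ± 1.27 in the CCI males, against 24.9 ± 2.08 in the naïve and 23.2 ± 1.24 in the CCI females, and Kctd11 at 15.4 ± 1.83 CPM in the naïve and 10.3 ± 0.6 in the CCI males, against 14.4 ± 0.0296 in the naïve and 15.04 ± 0.543 in the CCI females. In Kctd11 the CCI males were below the other 6 libraries, and the naïve groups of both sexes overlapped.

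Kctd18 was at 48.1 and 42.8 CPM in the naïve and 26.5 and 22.2 in the CCI males, against 38.1 and 32.4 in the naïve and 28.7 and 26.7 in the CCI females. Naïve males were the highest and CCI males the lowest of the 8, and CCI females were below naïve females. Kctd19, best known from the testis, was at 2.06 and 2.16 CPM in the naïve and 0.874 and 0.887 in the CCI males, against 0.698 and 0.804 in the naïve and 0.646 and 0.486 in the CCI females. It was highest in naïve males, and its log2FC between naïve females and naïve males was -1.49 ± 0.25, at the fewest counts of any of the 35. Asb2, an adaptor that targets filamins in muscle and blood cells, was at 3.77 and 3.45 CPM in the naïve and 2.06 and 2.001 in the CCI males, against 1.52 and 1.51 in the naïve and 1.73 and 1.05 in the CCI females. Both male groups were above both female groups in Kctd19 and in Asb2. Klhl17, an actin-binding adaptor of neurons also called actinfilin, was at 32.2 and 29.3 CPM in the naïve and 22.97 and 24.6 in the CCI males, against 17.9 and 21.1 in the naïve and 17.3 and 18.7 in the CCI females. It was also higher in both male groups than in both female groups, with a log2FC of females against males of -0.65 ± 0.11 in naïve rats and -0.40 ± 0.09 in CCI rats.

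The ubiquitin-specific proteases were lower after CCI in males. Usp40 was at 23.3 and 19.99 CPM in the naïve and 11.9 and 9.55 in the CCI males, against 15.2 and 13.5 in the naïve and 14.2 and 11.9 in the CCI females, with naïve males highest and CCI males lowest, and its log2FC was -1.01 ± 0.13 in males and -0.15 ± 0.13 in females. Usp53, a protein of tight junctions, was at 97.96 and 88.3 CPM in the naïve and 59.04 and 55.4 in the CCI males, against 88.5 and 78.1 in the naïve and 82.9 and 71.4 in the CCI females. CCI males were below the other 6 libraries and the naïve groups of both sexes overlapped. Usp36, which acts in the nucleolus, was at 30.96 ± 1.31 CPM in the naïve and 21.1 ± 0.349 in the CCI males, against 23.04 ± 0.48 in the naïve and 21.5 ± 0.662 in the CCI females (mean ± SD, n = 2), with log2FC of -0.55 ± 0.06 in males and -0.11 ± 0.09 in females. Usp6nl carries the prefix but is a GTPase-activating protein of Rab GTPases and no protease, and it was at 136 ± 15.3 CPM in the naïve and 90 ± 1.06 in the CCI males, against 109 ± 3.16 in the naïve and 97.6 ± 8.15 in the CCI females, with -0.59 ± 0.09 in males and -0.16 ± 0.09 in females.

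In 7 genes the naïve and CCI groups did not overlap in either sex and moved in opposite directions, Klhl14, Ube2a, Ube2l3 and Trim37 being higher after CCI in males and lower in females, and Rnf40, Trim47 and Kctd11 the reverse (7.01% of all genes had this pattern). Near the limits of the lists, the naïve log2FC was 0.51 for Psma5, -0.50 for Rnf40 and -0.49 for Trim5, which were listed for the naïve sex difference, and 0.56 for Klhl14 and 0.49 for Psmd14, which were not. For the interaction it was -0.32 for Ube2l3, the smallest of the listed genes, and 0.86 for Kctd19 and -0.49 for Ube2l6, which were not listed.

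The comparison that the lists did not use is the change after CCI averaged over males and females. Its estimate is independent of the naïve sex difference and of the interaction where groups vary equally. Its test is not fully so, since the listing and this test both used each gene's spread between rats. Genes with a small spread may have been favored in both. A change in 1 sex alone enters both the average and the interaction, so a gene that passed did not thereby change in both sexes. The groups did not vary equally, with a common dispersion of 0.0478 in males and 0.00942 in females. The median absolute log2 CPM difference between rats went the other way, over the 35 genes and over all genes. Over all genes it was 0.131 and 0.118 for naïve and CCI males, and 0.153 and 0.128 for naïve and CCI females. By edgeR's quasi-likelihood test on all 8 libraries, 8 of 35 genes (22.9%) met both thresholds, all 8 lower after CCI, against 15.4% of all genes (9.29% lower and 6.08% higher). They were Trim34 (-1.23 ± 0.18, adjusted p = 0.00157), Kctd19 (-0.83 ± 0.19, adjusted p = 0.00943), Trim45 (-0.76 ± 0.19, adjusted p = 0.0141), Kctd18 (-0.62 ± 0.08, adjusted p = 0.00114), Trim5 (-0.62 ± 0.07, adjusted p = 0.00075), Usp40 (-0.58 ± 0.10, adjusted p = 0.0038), Trim39 (-0.52 ± 0.09, adjusted p = 0.00261) and Trim41 (-0.52 ± 0.06, adjusted p = 0.000573). In Trim34, Trim5, Trim39, Trim41, Kctd18 and Kctd19 CCI libraries were below naïve libraries in each sex, whereas in Trim45 and Usp40 the female groups overlapped. Whether Trim39, Trim41, Trim45 and Usp40 passed depended on single libraries. With 1 library left out, the log2FC ranged from -0.615 to -0.432 for Trim39 and from -0.565 to -0.471 for Trim41. The range was -1.04 to -0.560 for Trim45 and -0.656 to -0.49995 for Usp40. Trim45 thus stayed beyond the log2FC limit, and was lost through its adjusted p without the first CCI male, at a log2FC of -0.72.

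Without a limit on size, 22 of 35 genes (62.9%) had an adjusted p under 0.05 for the average, 5 higher and 17 lower after CCI, against 41% of all genes (21.3% higher and 19.7% lower). The 5 that rose were the proteasome subunits Psmd6 (0.40 ± 0.05, adjusted p = 0.000925), Psma1 (0.26 ± 0.05, adjusted p = 0.00687) and Psmd14 (0.29 ± 0.06, adjusted p = 0.0093), with Rnf180 (0.38 ± 0.09, adjusted p = 0.0139) and Ube2j1 (0.20 ± 0.05, adjusted p = 0.0172). The other proteasome subunits did not pass, with 0.14 ± 0.07 for Psma2, 0.16 ± 0.11 for Psma5 and 0.14 ± 0.09 for Psmb4. Without the first naïve female, the highest library in all 3, they did pass, at 0.20 (adjusted p = 0.0231), 0.30 (adjusted p = 0.00659) and 0.24 (adjusted p = 0.0233) in the same order. Of the remaining genes, Usp36, Usp53 and Usp6nl fell by 0.33 to 0.41 (adjusted p from 0.00175 to 0.00353), as did, in the average over both sexes, Uba7, Fbxl6, Fbxl19, Fbxo9, Klhl17 and Kctd11, with log2FC from -0.49 to -0.20 and adjusted p from 0.0122 to 0.0413. Of these calls, those of Uba7, Klhl17, Kctd11, Fbxl19 and Ube2j1 were lost when any of 7, 6, 6, 5 and 4 of the 8 libraries was left out, with adjusted p up to 0.141, 0.0966, 0.0983, 0.101 and 0.0647, and that of Fbxl6 without the first CCI male (adjusted p = 0.0503). Behind the average for Fbxo9 (-0.23 ± 0.05) stood a log2FC of -0.01 in males and -0.45 in females, and behind that for Uba7 (-0.49 ± 0.16) one of -1.09 in males and 0.11 in females. The female log2FC was also above 0 for Kctd11 (0.06 ± 0.10) and Fbxl19 (0.03 ± 0.09), against -0.58 and -0.43 in males. The genes were picked by the authors on these libraries for other contrasts, and 11.5% of the genes tested had a symbol, so these counts describe the 35 genes and no gene family as a whole.

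Other gene lists also differed between these libraries. A gene of such a list could be summed only where the published lists named it, that is, where it differed in these libraries. The directions of these lists, here and in the next paragraph, were in part fixed by that choice, and nothing is read from them. The summed CPM of 13 transcripts that often stay in the nucleus or keep introns, of 16 on the list, was 4135 and 3287 CPM in the naïve and 1619.6 and 1592 in the CCI males, against 1664 and 2212 in the naïve and 1625 and 1439 in the CCI females. Naïve males were above the other 6 libraries in this sum, as they were in Uba7 and 5 TRIM genes, and below them in the 6 proteasome subunits. Of the 13 transcripts, 13 were lower after CCI in males, 11 in females, and 13 were lower in naïve females than in naïve males. Its part in the results was not tested. The summed CPM of 6 of 11 Schwann cell markers was 13149 and 10785 CPM in the naïve and 3399 and 3243 in the CCI males, against 9286 and 7547 in the naïve and 5421 and 4157 in the CCI females, with CCI below naïve in each sex, and that of 8 of 18 sensory neuron markers was 12618 and 14427 CPM in the naïve and 20968 and 21444 in the CCI males, against 16266 and 16088 in the naïve and 17021 and 19482 in the CCI females, with CCI above naïve in each sex. Of the 6 Schwann cell markers, 0 were higher after CCI in males and 1 in females. Of the 8 sensory neuron markers, 8 were higher after CCI in males and 7 in females. The part of either cell type in the results was not tested.

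**Figure D5:**
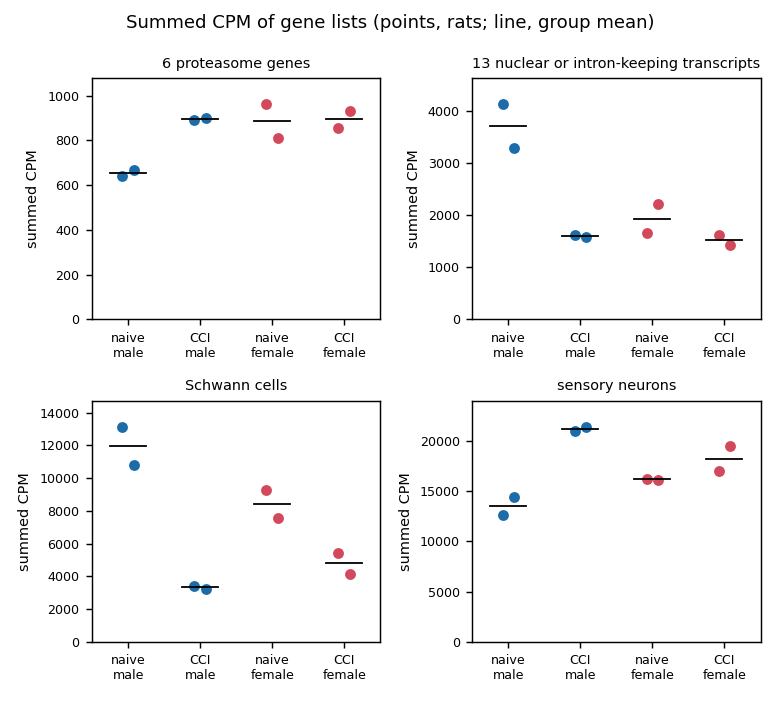
Summed CPM of the 6 proteasome genes, of 13 nuclear or intron-keeping transcripts, of 6 Schwann cell markers and of 8 sensory neuron markers in each rat (points, males blue and females red) with the group mean (line), on axes that start at 0. Naïve males have the lowest proteasome sums and the highest sums of the nuclear transcripts, at 4135 and 3287 CPM.

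Red blood cell genes (7 of 9) summed to 129.6 and 1388 CPM in the naïve and 252 and 222 in the CCI males, against 1351 and 2029 in the naïve and 168 and 212 in the CCI females. Muscle markers Mb and Casq1, 2 of 11, summed to 4.28 and 6.09 CPM in the naïve and 15.8 and 15.9 in the CCI males, against 3.72 and 3.26 in the naïve and 1.99 and 1.87 in the CCI females and were highest in CCI males. For fibroblasts 3 of 5 markers summed to 1783 and 1917 CPM in the naïve and 1111 and 1148 in the CCI males, against 1753 and 1815 in the naïve and 1584 and 1567 in the CCI females. Other lists had 1 named marker each, Fabp7 of satellite glia (46.1 to 106 CPM), Cd74 of macrophages (133 to 340.0 CPM), Ngp of neutrophils (0.0765 to 6.22 CPM) and Acta2 of vessels (20.4 to 44.3 CPM), and no T cell marker was named. No named marker of any list was at 0 in a library. Their part in the results was not tested.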

How the data were processed

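RNA was measured in 8 libraries from 4 groups of 2 rats. According to the paper's methods and the submitters' processing notes, CASAVA 1.8.2 was used, and reads of strand-specific poly(A) libraries were aligned to rn6 with HISAT2, cleared of ribosomal RNA and counted per Ensembl gene with featureCounts. Whether counting used strand is not given in the sources used here. The deposited values are the authors' raw counts, without normalization or batch correction, and columns without a sample numbered 0.

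Counts were analysed in R 4.3.3 with edgeR 4.0.16 (filterByExpr over all 8 libraries with a minimum count of 10 and a minimum total of 15, TMM, quasi-likelihood test with Benjamini-Hochberg adjustment over 16988 genes). Log2 CPM used a prior count of 2. Genes were called at an adjusted p of less than 0.05 with a log2FC beyond 0.5 in either direction, and for the interaction without the size limit. Each sex, the naïve groups and the CCI groups were fitted on their 4 libraries, the average and the interaction on all 8. The SE is the log2FC divided by the square root of F. An exact test of 2 rats against 2 cannot go below p = 0.333. Alternatives were DESeq2 1.42.0, other scalings, filters and fits, a replicate block, and leaving out each library. Code was tested on simulated data.

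The genes and lists were chosen with earlier results of these data known. Every gene of the rule is named. Symbols came from the published lists. The reference tables carried no Ensembl identifiers, so results for whole families could not be given and stand for the 35 genes alone. Promoters are RefSeq GRCr8, 250 bases before the start, present for 30 of 35 genes. Rats of a group differed beyond counting noise, with a chi-square per gene of 13.2 to 39.8. Kctd19 had the fewest counts of the 35 genes. Replicate numbers were checked for pairing. Deviations of equal numbers correlated at 0.73 between naïve and CCI males and at -0.02 to 0.14 between the other groups, so no block was used in the main comparisons.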

Additional observations from a re-analysis of the deposited data

Results flagged for a closer look

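In 7 of the 35 genes every CCI rat of one sex was above, and every CCI rat of the other sex below, the naïve rats of its own sex. All 7 were listed for the interaction in these libraries, so its test is no independent test of their difference between sexes, which was not tested otherwise, and 7.01% of all genes had this pattern. The log2FC after CCI in males and females was 0.47 ± 0.15 and -0.70 ± 0.21 for Klhl14, and 0.26 ± 0.06 and -0.20 ± 0.09 for Ube2a. It was 0.11 ± 0.06 and -0.22 ± 0.08 for Ube2l3, and 0.26 ± 0.07 and -0.12 ± 0.09 for Trim37. It was -0.30 ± 0.08 and 0.23 ± 0.09 for Rnf40, and -0.59 ± 0.12 and 0.18 ± 0.15 for Trim47. For Kctd11 it was -0.58 ± 0.11 and 0.0585 ± 0.105. In females, Klhl14, Ube2l3 and Rnf40 had an unadjusted p under 0.05 in edgeR, whereas Ube2a, Trim37, Trim47 and Kctd11 did not. In males, Ube2l3 alone of the 7 did not. The female groups of Trim37 were parted by 220.3 CPM in a naïve and 220.1 in a CCI rat.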

How the results depend on the processing

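With 2 rats a group the counts of genes past the thresholds depended on single libraries. Leaving out a library left 1 rat in a group, so a lower count can also come from lost power. For the average over both sexes, the count was 8 by DESeq2 (2378 over all genes), 8 with the replicate block (2598 over all genes) and 22 without a log2FC limit. In males it was 19 with the replicate block, 32 without a log2FC limit and 0 to 18 when a library was left out. In females it was 0 in edgeR and 1 by DESeq2, without a filter on low counts or without a log2FC limit, and 0 to 1 when a library was left out. For the interaction it was 0 in edgeR, 26 by DESeq2 (2 of the 35 without an adjusted p), 13 without a filter, 3 with at least 10 counts in every library, 3 with the replicate block and 0 to 4 when a library was left out. Over all genes the interaction gave 270 calls in edgeR, 1618 by DESeq2, 1032 without a filter and 532 with at least 10 counts in every library. For naïve females against naïve males the 35 genes gave 0 calls in edgeR, 10 by DESeq2, 10 in the fit on all 8 libraries and 0 to 2 when a library was left out, and all genes gave 12, 996 and 906. Without a filter all genes gave 130. With a library left out, all genes gave 0 to 3705 calls in males (3663 with all libraries), 109 to 1706 in females (967), 0 to 400 for the interaction and 6 to 367 between naïve groups. Without a log2FC limit they gave 6969 for the average (2612 with it), 6447 in males and 1560 in females.

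The correlation of deviations from the group means between equal replicate numbers was 0.73 for naïve and CCI males and -0.02 to 0.14 for the other pairs of groups. The names of both first male columns carry an added letter whose meaning is not given, and a shared batch of these rats was not tested. Since 3 of 6 pairs of groups exceeded 0.1 and no label states a pairing, the numbers were not used as pairs. The replicate block raised the interaction count to 3 and left the counts of the average, of males and of females at 8, 19 and 0, with 4478 calls in males over all genes against 3663 without it, and with it all genes gave 6 calls between the naïve groups. Of 525 values of single genes for the average, 486 kept direction and side of the threshold of an adjusted p, 30 no longer passed it, 6 newly passed it and 3 changed sign. These were Rnf40, at -0.03 with all libraries, 0.001398 without the first naïve male and 0.00601 without the first naïve female (-0.0749 to 0.00601 over the libraries left out), and Ube2l6, at 0.06 with all libraries and -0.0167 without the second naïve female. The cause of these shifts was not tested.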
